A study of Mus musculus with 12 samples.

Results

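The genes described here are those of the mouse major histocompatibility complex (MHC) and of antigen presentation, followed in whole kidney after toxin-induced injury of podocytes. They were set by a rule of name and count: every row of the deposited count table whose symbol starts with H2-, plus B2m, Cd74, Ciita, Nlrc5, Tap1, Tap2, Tapbp, Psmb8, Psmb9 and Psmb10, with at least 10 counts summed over the 12 libraries. The rule was chosen with earlier results of these data known. Of the 56722 genes in the table, 55 had such a name and 40 of them reached the count minimum, 30 with an H2- symbol and 10 others. The member just inside the minimum was H2-M9 with 13 counts, and those just outside were H2-M1, H2-M6-ps and H2-M10.5 with 5 counts each. Of the 15 rows left out, 10 had 0 counts, among them H2-Ea, the alpha chain that pairs with the product of H2-Eb1. A filter on low counts passed 38 of the 40 members, and H2-M5 and H2-M9 were counted but not tested. H2-Ke6 carries the name of the region but encodes a metabolic enzyme, so it is kept apart from the 11 class II and 28 class I genes.

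All mice were Pod-TRECK, a mouse line in which diphtheria toxin injures podocytes, the epithelial cells of the glomerular filter. Mice were given 100 ng of diphtheria toxin into the peritoneum and kidneys were taken 5, 14 or 21 days later, while controls of the same line were left untreated, so that a toxin injection and podocyte injury differ together between the groups. Each of the 4 groups had 3 biological replicates, and RNA of the whole kidney was sequenced after poly(A) selection. The labels used here give no strain background, age or sex, and do not name the promoter that directs toxin sensitivity to podocytes. They give 1 batch label for all libraries.

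MHC class I molecules are present on nearly all nucleated cells and hold peptides cut from the cell's own proteins, which CD8+ T cells inspect. The peptides are cut by the proteasome, pumped into the endoplasmic reticulum by the transporter of Tap1 and Tap2, and loaded onto a heavy chain paired with beta-2 microglobulin. Class II molecules sit mainly on dendritic cells, macrophages and B cells, hold peptides from engulfed material, and are inspected by CD4+ T cells. In the kidney, class II is known from resident macrophages and dendritic cells of the interstitium, and interferon gamma is known to induce both classes in epithelium through the transactivators Nlrc5 (class I) and Ciita (class II).

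Both classes are also known for short promoter motifs, and the bases just before the start of 6 members are shown because these genes carry the main contrasts: class II chains, the classical class I chains with their light chain, and H2-Q7, a class I gene that fell at day 5. Each run gives the 200 bases before the RefSeq start, 5′ to 3′ on the gene's strand, from RefSeq with positions on GRCm38.p6. Capitals mark 5 motifs searched on both strands. GATTGG is the Y or CCAAT box, TGACG the core of the cAMP response element, and CTNGCAAC lies within the X box of class II genes. GGGGATNCC is enhancer A of class I genes, and TTTCNNTTC is a shorter variant of the interferon-stimulated response element. The longer form of the interferon element was not searched, and the B2m run holds that form in lower case.
H2-Aa, chr17:34287824-34288023, minus strand: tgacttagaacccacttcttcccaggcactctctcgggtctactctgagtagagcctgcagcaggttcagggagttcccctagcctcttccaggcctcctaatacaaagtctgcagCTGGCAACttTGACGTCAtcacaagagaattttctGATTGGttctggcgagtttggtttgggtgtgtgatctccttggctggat
H2-Eb1, chr17:34305667-34305866, plus strand: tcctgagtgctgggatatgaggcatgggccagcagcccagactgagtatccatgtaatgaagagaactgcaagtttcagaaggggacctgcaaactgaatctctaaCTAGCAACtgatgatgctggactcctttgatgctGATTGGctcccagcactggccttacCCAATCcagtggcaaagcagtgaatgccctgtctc
B2m, chr2:122147487-122147686, plus strand: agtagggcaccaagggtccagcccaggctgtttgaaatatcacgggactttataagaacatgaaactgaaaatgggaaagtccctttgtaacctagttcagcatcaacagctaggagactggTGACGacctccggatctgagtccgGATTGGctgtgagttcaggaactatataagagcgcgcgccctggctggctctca
H2-K1, chr17:34000334-34000533, minus strand: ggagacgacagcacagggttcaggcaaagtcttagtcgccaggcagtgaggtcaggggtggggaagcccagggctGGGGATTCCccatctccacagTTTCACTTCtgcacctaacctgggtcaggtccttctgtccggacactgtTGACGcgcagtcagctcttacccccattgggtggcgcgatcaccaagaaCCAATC
H2-D1, chr17:35262894-35263093, plus strand: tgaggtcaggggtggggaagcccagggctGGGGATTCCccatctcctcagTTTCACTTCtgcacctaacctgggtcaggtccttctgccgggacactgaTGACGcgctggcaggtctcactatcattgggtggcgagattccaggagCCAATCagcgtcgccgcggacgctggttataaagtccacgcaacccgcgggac
H2-Q7, chr17:35438955-35439154, plus strand: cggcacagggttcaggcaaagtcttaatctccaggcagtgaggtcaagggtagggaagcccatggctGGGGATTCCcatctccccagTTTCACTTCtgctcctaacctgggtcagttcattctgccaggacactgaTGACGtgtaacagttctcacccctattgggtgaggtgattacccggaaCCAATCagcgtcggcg
In H2-Aa the core of the response element is read on both strands at overlapping positions, and no other marked motifs overlap in these 6 runs.

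Of the 40 members, 29 had a RefSeq start in the promoter table, which holds 27025 genes. GATTGG was found before 20 of the 29 members and before 14.8% of all genes, and TGACG before 10 members and 17.5% of genes. CTNGCAAC was found before 4 members, the class II genes H2-Aa, H2-Eb1, H2-Eb2 and H2-Ob, and before 2.85% of genes. GGGGATNCC was found before 4 members, H2-K1, H2-D1, H2-Q6 and H2-Q7, and before 0.777% of genes. TTTCNNTTC was found before 8 members and 5.79% of genes, which does not count the longer form of the interferon-stimulated response element. B2m is not among the 8, although its window holds that longer form. The windows of H2-K1, H2-D1 and H2-Q7 hold the same set of these motifs, all but CTNGCAAC. These are matches of letters and no measurement of a factor on the DNA.

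The libraries held 31023852 to 46420299 counts each, which limits the precision of members with few counts. Levels of 1 gene are given as CPM, counts scaled by TMM to a common library size, levels between genes as TPM, which also divides by gene length, and differences as log2 fold changes ± SE from edgeR's quasi-likelihood test, with p-values adjusted over 19821 genes and a gene called at an adjusted p under 0.05. Day-21 replicate 2 stood apart from its group: on the first principal component (66.2% of the variance) it lay at -36.8, against 73.0 and 80.1 for day-21 replicates 1 and 3 and -44.5 to -37.4 for day 5. Day-21 values are therefore given per library or with and without it where a call or a value rests on it, and because the groups share 1 estimate of the spread, leaving it out also changed calls at other days. Scaling to library totals alone in place of TMM raised the median log2 difference of all genes to 0.80 at day 14 and 0.55 at day 21, against 0.08 and 0.07 with TMM, so that changes are relative to TMM scaling. In whole tissue, fewer cells of a type and less RNA per cell cannot be told apart.

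How the reads of near-identical class I genes were assigned is not given in the sources used here, so values of single class I heavy chains, above all H2-K1, H2-D1 and the H2-Q and H2-T genes, may share reads. On the GRCm39 coordinates of the table, 20 of the 40 members overlap another row, 18 of them on the opposite strand. H2-Ke6 (52351 counts over all libraries) overlaps Gm20427 (52206 counts), so that its values are uncertain. All 30 H2- members lie on chromosome 17, between the start of H2-K2 at 34193633 and the end of H2-M2 at 37794443, and Psmb9, Tap1, Psmb8 and Tap2 lie side by side in that stretch, from 34400961 to 34435295, between H2-DMb1 and H2-Ob. Cd74 (chromosome 18, positions 60936920 to 60945724), B2m (chromosome 2, positions 121978167 to 121983564), Ciita (chromosome 16, positions 10297923 to 10346282), Nlrc5 (chromosome 8, positions 95160984 to 95253900) and Psmb10 (chromosome 8, positions 106662367 to 106665076) lie on other chromosomes.

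Few members were called at day 5 and most were higher at day 14, and 14 of them were lower at day 21 than at day 14. At day 5, 3 of the 38 tested members rose (Nlrc5, B2m and H2-Ab1) where 9.77% of all genes rose, and 4 fell (H2-Bl, H2-Q6, H2-Q7 and H2-Q5) where 5.09% of all genes fell. At day 14, 27 rose and 4 fell, against 31.2% and 28.8% of all genes. At day 21, 23 rose and 4 fell, against 24.3% and 18.5% of all genes. The median log2 fold change of the tested members was 0.32 at day 5, 1.47 at day 14 and 0.98 at day 21, beside 0.00, 0.08 and 0.07 for all genes tested, and the day-21 median was 1.15 without day-21 replicate 2. Without day-21 replicate 2, 18 members rose and 6 fell at day 5 (17.4% and 14.9% of all genes), 27 rose and 6 fell at day 14 (34.7% and 30.9%), and 25 rose and 7 fell at day 21 (33.2% and 28.4%), so the day-5 count of rises depends on that library. Left out in turn, control replicate 1 or any day-5 library left 2 falls at day 5, day-21 replicate 1 left 5 rises at day 5, and each control, day-5 replicate 2, day-14 replicates 1 and 2 and day-21 replicates 1 and 3 left 1 or 2 falls at day 21. With library totals alone, 31 rose and 1 fell at day 14, where 66.4% of all genes rose and 11.2% fell, and 30 rose and 1 fell at day 21, where 55.7% rose and 7.39% fell.

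**Figure D1:**
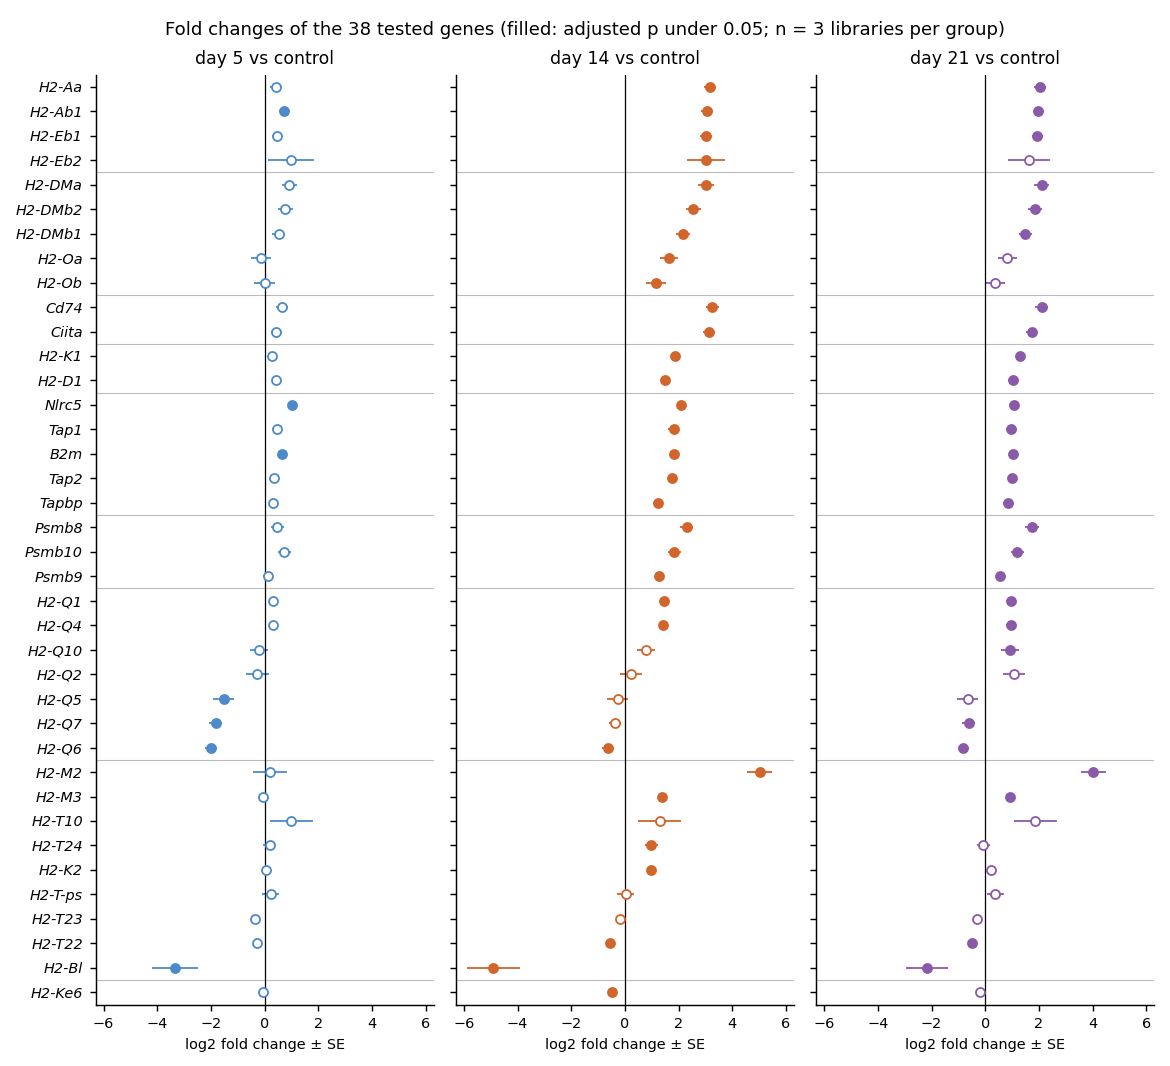
Log2 fold changes with SE (x axes) of the 38 tested members (rows, ordered by role and by day-14 change within a role) at 5, 14 and 21 days after toxin against control, n = 3 libraries per group, with filled points for an adjusted p under 0.05. All class II and classical class I genes lie right of 0 at day 14, while H2-Q5, H2-Q6, H2-Q7 and H2-Bl lie left of 0 in all 3 comparisons.

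Class II genes were higher at day 14. All 11 rose at day 14, by 1.16 to 3.26 on the log2 scale (median 3.02). At day 21, 8 rose (median 1.85), and at day 5, 1 rose (median 0.52). Counted without day-21 replicate 2, 7 rose at day 5, 11 at day 14 and 8 at day 21 (median 2.13). The shares of all genes that rose at days 5, 14 and 21 were 9.77%, 31.2% and 24.3%, or 17.4%, 34.7% and 33.2% without that library. Of all counts, class II genes together took 0.0224 ± 0.00296% in control kidneys, then 0.0376 ± 0.00298% at day 5, 0.321 ± 0.0122% at day 14 and 0.130 ± 0.0576% at day 21 (SD, n = 3 each), with 0.174%, 0.0653% and 0.151% in the single day-21 libraries.

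Cd74 encodes the invariant chain, which guides class II molecules out of the endoplasmic reticulum and blocks their groove until peptides can be loaded. It was measured at 132, 135 and 97.7 CPM in controls, 199.9, 173 and 195 at day 5, 1157, 1122 and 1211 at day 14 and 667, 331 and 567 at day 21. The 4 groups did not overlap, and day-21 replicate 2 was the lowest of the day-21 libraries. Its log2 fold change was 0.64 ± 0.22 at day 5 (adjusted p = 0.0814), 3.26 ± 0.24 at day 14 (adjusted p = 5.79e-06), the largest rise among class II genes, and 2.10 ± 0.23 at day 21 (adjusted p = 0.000319), or 2.34 ± 0.13 at day 21 without day-21 replicate 2. Ciita, the transactivator without which class II promoters stay silent, was at 3.91, 3.34 and 2.84 CPM in controls, 5.44, 3.52 and 4.68 at day 5, 28.4, 29.6 and 30.7 at day 14 and 14.4, 8.70 and 10.3 at day 21. Controls and day 5 overlapped, and every library of day 14 and day 21 lay above both. Ciita rose by 3.13 ± 0.21 on the log2 scale at day 14 (adjusted p = 4.03e-06) and by 1.72 ± 0.21 at day 21 (adjusted p = 0.000478), or 1.86 ± 0.19 without day-21 replicate 2.

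Both chains of the class II molecule H2-A and the beta chain of H2-E rose side by side, while H2-Ea, the alpha chain of H2-E, had 0 counts in every library. H2-Aa, the alpha chain of H2-A (chromosome 17, positions 34501718 to 34506797), was at 47.6, 43.7 and 35.8 CPM in controls, 61.5, 53.5 and 55.4 at day 5, 355, 383 and 413 at day 14 and 232, 116 and 175 at day 21. H2-Ab1, its beta chain (chromosome 17, positions 34476663 to 34488393), was at 46.8, 55.2 and 40.7 CPM in controls, 87.3, 73.3 and 76.9 at day 5, 387, 379.5 and 416 at day 14 and 244, 123 and 196 at day 21. H2-Eb1, the beta chain of H2-E (chromosome 17, positions 34524841 to 34535648), was at 43.9, 42.5 and 31.4 CPM in controls, 59.3, 48.5 and 54.6 at day 5, 328, 316 and 309 at day 14 and 188, 104 and 158 at day 21. For each of the 3 genes all day-14 libraries lay above all day-21 libraries, and these above all libraries of day 5 and control. At day 14 the log2 fold changes were 3.18 ± 0.23 for H2-Aa (adjusted p = 5.22e-06), 3.05 ± 0.22 for H2-Ab1 (adjusted p = 5.42e-06) and 3.02 ± 0.21 for H2-Eb1 (adjusted p = 4.92e-06). At day 21 they were 2.04 ± 0.22, 1.98 ± 0.22 and 1.93 ± 0.20, and 2.26 ± 0.14, 2.20 ± 0.13 and 2.13 ± 0.13 without day-21 replicate 2. At day 5 only H2-Ab1 of the 3 was called, at 0.73 ± 0.21 (adjusted p = 0.0378), a call lost when any library of control, day 5 or day 14 was left out and kept without day-21 replicate 2 (adjusted p = 0.000585). H2-Eb2, a rarely transcribed beta chain gene, had 67 counts over the day-14 libraries and 6 over the controls, which gave a ratio of 8.30 (95% counting interval 3.62 to 23.4).

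Loading of class II is carried out by H2-DM, which exchanges the remnant of the invariant chain for peptide, and is restrained by H2-DO. H2-DMa was at 4.06, 4.16 and 3.70 CPM in controls, 8.97, 6.18 and 7.45 at day 5, 29.0, 32.1 and 36.3 at day 14 and 22.7, 8.70 and 19.5 at day 21. H2-DMb1, a beta chain of H2-DM, was at 11.8, 11.3 and 11.5 CPM in controls, 18.2, 13.9 and 17.6 at day 5, 49.5, 50.3 and 54.4 at day 14 and 41.0, 17.97 and 38.1 at day 21. In both genes the 4 groups were ordered control, day 5, day 21 and day 14 by their means, and day-21 replicate 2 lay below the other day-21 libraries, inside the day-5 range. H2-DMa rose by 3.03 ± 0.30 at day 14 and 2.10 ± 0.29 at day 21, H2-DMb1 by 2.16 ± 0.25 and 1.49 ± 0.25, and H2-DMb2, the second beta chain gene, by 2.55 ± 0.28 and 1.85 ± 0.27. Without day-21 replicate 2 the day-21 values were 2.40 ± 0.15, 1.77 ± 0.10 and 2.16 ± 0.11. The H2-DO chains were far scarcer. H2-Ob was at 0.623, 0.572 and 0.679 CPM in controls, 0.594, 0.727 and 0.555 at day 5, 1.62, 1.30 and 1.27 at day 14 and 1.04, 1.09 and 0.329 at day 21. Its day-14 libraries lay above all others, while day-21 replicate 3 lay below every control. H2-Ob rose by 1.16 ± 0.37 at day 14 (adjusted p = 0.018), a call lost without control replicate 1, control replicate 2 or day-14 replicate 1, and was not called at day 21 (0.38 ± 0.38, adjusted p = 0.427). H2-Oa rose by 1.64 ± 0.33 at day 14 (adjusted p = 0.00164), and its day-21 value was 0.83 ± 0.35 (adjusted p = 0.0756), and neither chain was called at day 21 without day-21 replicate 2 (0.12 ± 0.39 and 0.91 ± 0.38).

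**Figure D2:**
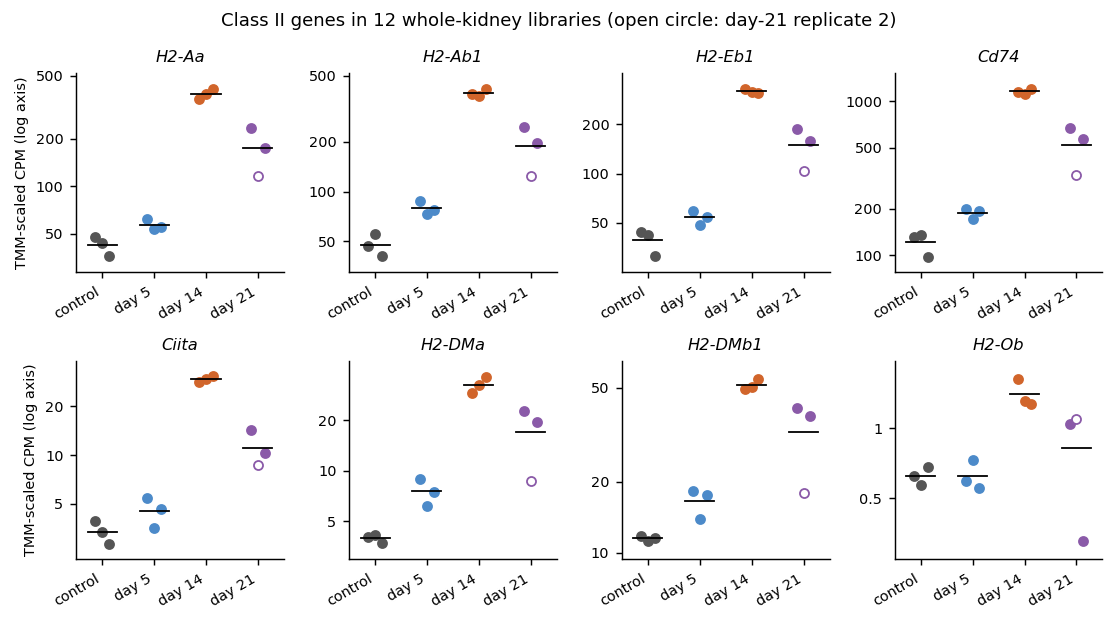
TMM-scaled CPM (log y axes) of 8 class II genes in each of the 12 libraries by group (x axes), with a line at the group mean and an open circle for day-21 replicate 2. Day-14 libraries are the highest in each panel, up to 1211 CPM for Cd74, and day-21 replicate 2 is the lowest day-21 library in all panels but that of H2-Ob.

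Classical class I genes and those that assemble class I molecules were higher at days 14 and 21. The classical heavy chains, beta-2 microglobulin, the loading genes, Nlrc5 and the immunoproteasome subunits make 10 genes, and all 10 rose at day 14 (median 1.82, range 1.21 to 2.29) and at day 21 (median 1.04), while 2 rose at day 5 (median 0.44). Without day-21 replicate 2, 9 of the 10 rose at day 5, and the day-21 median was 1.16. Of all genes tested, 9.77% rose at day 5, 31.2% at day 14 and 24.3% at day 21, and 17.4% rose at day 5 without that library. All 28 class I genes together took 0.0727 ± 0.00450% of counts in control kidneys, then 0.0874 ± 0.00345% at day 5, 0.289 ± 0.00280% at day 14 and 0.170 ± 0.0519% at day 21 (SD, n = 3 each), with 0.192%, 0.111% and 0.207% in the single day-21 libraries. Whether the fold changes of the classes differ in size was not tested.

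H2-K1 and H2-D1 are the classical heavy chains that present peptides to CD8+ T cells. H2-K1 (chromosome 17, positions 34214991 to 34219321) was at 129, 128 and 116 CPM in controls, 166, 141 and 145 at day 5, 468, 455 and 451 at day 14 and 340.0, 224 and 359 at day 21. H2-D1 (chromosome 17, positions 35481706 to 35486475) was at 156, 168 and 146 CPM in controls, 218, 201 and 211 at day 5, 456, 438 and 418 at day 14 and 366, 226 and 361 at day 21. All day-5 libraries lay above all controls in both genes, by little, and all day-14 libraries lay above all others. H2-K1 rose by 1.88 ± 0.16 at day 14 (adjusted p = 1.33e-05) and 1.31 ± 0.16 at day 21 (adjusted p = 0.000536), and H2-D1 by 1.48 ± 0.17 (adjusted p = 5.58e-05) and 1.02 ± 0.16 (adjusted p = 0.00178). Without day-21 replicate 2, the day-21 values were 1.48 ± 0.08 and 1.21 ± 0.07, and both genes were also called at day 5, at 0.28 ± 0.07 and 0.42 ± 0.07.

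B2m, the light chain shared by all class I molecules, was among the 3 members that rose at day 5. It was at 200.3, 191 and 166 CPM in controls, 309.7, 285 and 284 at day 5, 613, 656 and 703 at day 14 and 409, 323 and 423 at day 21. No group overlapped another, in the order control, day 5, day 21 and day 14. The log2 fold change was 0.66 ± 0.13 at day 5 (adjusted p = 0.00657), 1.82 ± 0.13 at day 14 (adjusted p = 5.34e-06) and 1.05 ± 0.13 at day 21 (adjusted p = 0.000551), or 1.16 ± 0.09 without day-21 replicate 2. Nlrc5, the transactivator of class I genes, had the largest called rise at day 5. Its levels were 2.99, 2.26 and 2.47 CPM in controls, 5.71, 5.59 and 4.32 at day 5, 11.0, 10.7 and 11.5 at day 14 and 5.81, 5.65 and 4.60 at day 21. Here the day-5 and day-21 libraries covered about the same range, above all controls and below all day-14 libraries. Nlrc5 rose by 1.01 ± 0.16 at day 5 (adjusted p = 0.00178), 2.10 ± 0.16 at day 14 (adjusted p = 6.28e-06) and 1.05 ± 0.16 at day 21 (adjusted p = 0.00129), or 1.01 ± 0.17 without day-21 replicate 2.

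The peptide transporter and its partner rose with them. Tap1, which pairs with Tap2 to form the transporter, was at 7.77, 5.21 and 6.17 CPM in controls, 10.02, 8.39 and 7.96 at day 5, 23.3, 23.1 and 21.4 at day 14 and 15.8, 8.89 and 12.7 at day 21. Tap2 was at 14.7, 14.6 and 14.8 CPM in controls, 18.3, 16.6 and 20.7 at day 5, 51.5, 47.2 and 49.0 at day 14 and 29.9, 21.4 and 36.2 at day 21. Tapbp, which encodes tapasin, the bridge between transporter and heavy chain, was at 52.1, 46.1 and 49.4 CPM in controls, 60.4, 62.0 and 61.6 at day 5, 115, 113 and 114 at day 14 and 103, 58.1 and 102 at day 21. Day-14 libraries were the highest in all 3 genes, and day-21 replicate 2 lay in the range of day 5 for Tap1 and below it for Tapbp. At day 14 the log2 fold changes were 1.82 ± 0.20 for Tap1, 1.75 ± 0.16 for Tap2 and 1.21 ± 0.18 for Tapbp, the smallest of the 10 genes (adjusted p = 0.000226). At day 21 they were 0.97 ± 0.20, 0.99 ± 0.16 and 0.83 ± 0.17, or 1.15 ± 0.16, 1.16 ± 0.10 and 1.05 ± 0.06 without day-21 replicate 2, with all 3 called either way.

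**Figure D3:**
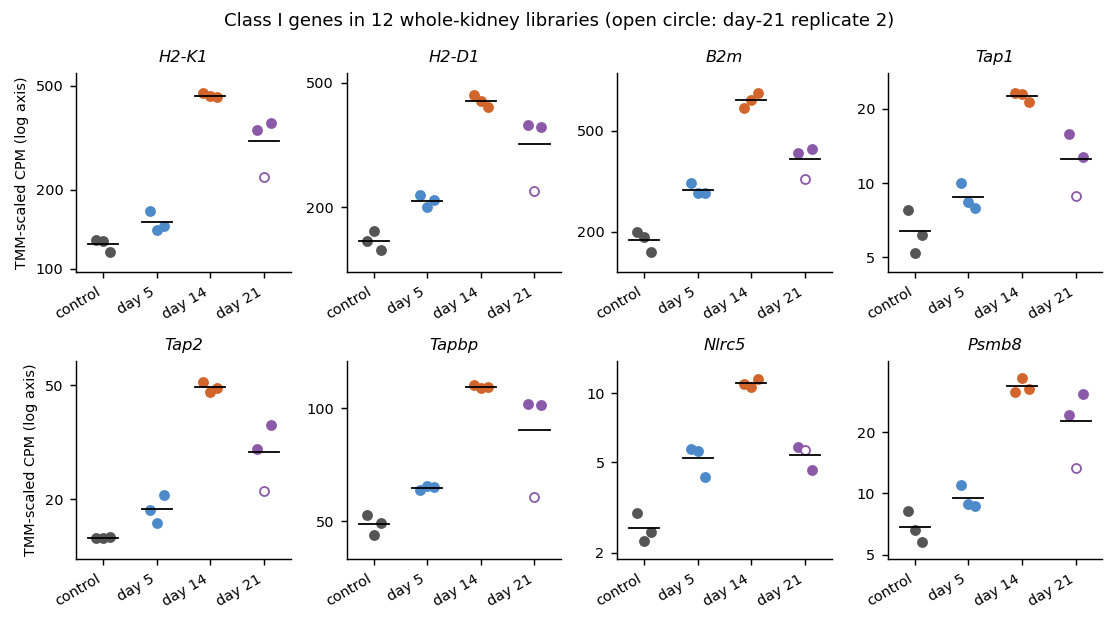
TMM-scaled CPM (log y axes) of 8 class I genes in each of the 12 libraries by group (x axes), with a line at the group mean and an open circle for day-21 replicate 2. Day 14 is highest in every panel, up to 703 CPM for B2m, and Nlrc5 is the panel in which day 5 and day 21 lie at the same height.

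The immunoproteasome subunits replace the 3 catalytic subunits of the standard proteasome and shift the peptides it makes toward those that class I holds well. Psmb8 was at 8.18, 6.57 and 5.77 CPM in controls, 10.9, 8.89 and 8.63 at day 5, 31.4, 36.8 and 32.5 at day 14 and 24.2, 13.4 and 30.6 at day 21. Psmb9 was at 4.66, 3.67 and 3.67 CPM in controls, 5.31, 3.58 and 4.05 at day 5, 10.1, 9.32 and 9.52 at day 14 and 5.59, 5.90 and 6.06 at day 21. Psmb10 was at 8.78, 7.71 and 8.12 CPM in controls, 15.1, 11.5 and 14.4 at day 5, 28.3, 28.2 and 31.4 at day 14 and 18.9, 11.1 and 26.3 at day 21. In all 3 genes the day-14 libraries lay above all others. Psmb9 overlapped between day 5 and controls, and day-21 replicate 2 of Psmb10 lay just below the day-5 libraries. At day 14 the log2 fold changes were 2.29 ± 0.26 for Psmb8 (adjusted p = 5.65e-05), 1.27 ± 0.16 for Psmb9 (adjusted p = 9.23e-05) and 1.84 ± 0.25 for Psmb10 (adjusted p = 0.000147). At day 21 they were 1.73 ± 0.26, 0.55 ± 0.16 and 1.20 ± 0.24, all called, with 1.99 ± 0.15, 0.53 ± 0.17 and 1.45 ± 0.15 without day-21 replicate 2. The day-21 call of Psmb9 was lost without control replicate 2, control replicate 3 or day-21 replicate 3, and with only the 6 libraries compared.

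The 14 standard subunits Psma1 to Psma7 and Psmb1 to Psmb7 did not rise with them on the TMM scale. At day 14, 11 of the 14 fell and none rose, with a median log2 fold change of -0.32, where 28.8% of all genes fell and 31.2% rose. With library totals alone, however, 10 rose and 1 fell (median 0.41, beside 0.80 for all genes), where 66.4% of all genes rose and 11.2% fell. A ratio of TPM between subunits does not depend on that scaling. The ratio of Psmb8 to Psmb5, the subunit it replaces, was 0.0244, 0.0192 and 0.0150 in controls, 0.0291, 0.0250 and 0.0232 at day 5, 0.120, 0.154 and 0.112 at day 14 and 0.0812, 0.0358 and 0.0816 at day 21. For Psmb9 to Psmb6 it was 0.0251, 0.0205 and 0.0195 in controls, 0.0276, 0.0192 and 0.0209 at day 5, 0.0731, 0.0662 and 0.0698 at day 14 and 0.0357, 0.0318 and 0.0323 at day 21. For Psmb10 to Psmb7 it was 0.117, 0.103 and 0.0993 in controls, 0.193, 0.149 and 0.192 at day 5, 0.610, 0.608 and 0.614 at day 14 and 0.352, 0.152 and 0.410 at day 21. In each pair the day-14 libraries lay above all others, and the mean ratio was 0.129 ± 0.0220 at day 14 and 0.0196 ± 0.00469 in controls for Psmb8, 0.0697 ± 0.00343 and 0.0217 ± 0.00299 for Psmb9, and 0.611 ± 0.00283 and 0.106 ± 0.00926 for Psmb10 (SD, n = 3 each). The ratios are given without a test.

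**Figure D4:**
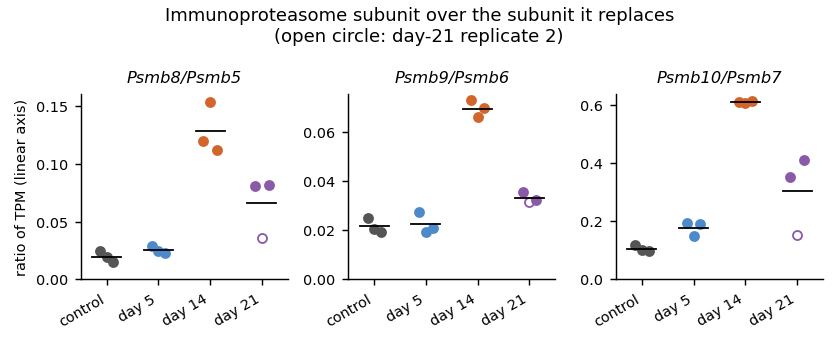
Ratio of TPM (linear y axes from 0) of each immunoproteasome subunit to the standard subunit it replaces, in each of the 12 libraries by group (x axes), with a line at the group mean and an open circle for day-21 replicate 2. The Psmb10 to Psmb7 ratio lies between 0.608 and 0.614 at day 14 and between 0.0993 and 0.117 in controls.

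The other class I heavy chain genes, which include nonclassical molecules with few alleles, did not move together. Of the 16 tested, 4 fell and none rose at day 5, 6 rose and 3 fell at day 14, and 5 rose and 4 fell at day 21, with median log2 fold changes of -0.13, 0.49 and 0.29. Of all genes tested, 9.77% rose and 5.09% fell at day 5, 31.2% and 28.8% at day 14, and 24.3% and 18.5% at day 21. Without day-21 replicate 2, 7 rose and 6 fell at day 21 (median 0.13), where 33.2% of all genes rose and 28.4% fell. With library totals alone 10 rose and 1 fell at day 14, where 66.4% of all genes rose and 11.2% fell. In that fit 9 rose and 1 fell at day 21, where 55.7% of all genes rose and 7.39% fell. The 4 that fell at day 5 were H2-Q5, H2-Q6 and H2-Q7 of the Q region and H2-Bl of the T region.

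H2-Q7 and H2-Q6 belong to the genes of the Qa-2 antigen. H2-Q7 (chromosome 17, positions 35658131 to 35662749) was at 123, 98.2 and 113 CPM in controls, 38.2, 30.9 and 24.8 at day 5, 80.9, 87.3 and 92.1 at day 14 and 56.0, 104 and 57.5 at day 21. Its day-5 libraries were the lowest of all, and day-21 replicate 2 lay in the control range while day-21 replicates 1 and 3 lay below every control. H2-Q7 fell by 1.83 ± 0.24 on the log2 scale at day 5 (adjusted p = 0.000557), a fold of 0.281, was at -0.36 ± 0.23 at day 14 (adjusted p = 0.194), and fell by 0.62 ± 0.23 at day 21 (adjusted p = 0.0486) or 0.98 ± 0.15 without day-21 replicate 2, while library totals alone gave 0.37 at day 14 and -0.20 at day 21, not called. The day-21 call of H2-Q7 was also lost with only the 6 libraries compared, and on leaving out any 1 control, day-5 replicate 2, any 1 day-14 library, or day-21 replicate 1 or 3. H2-Q6 (chromosome 17, positions 35643826 to 35649031) was at 53.4, 42.7 and 48.8 CPM in controls, 15.3, 12.0 and 8.95 at day 5, 29.7, 30.6 and 32.7 at day 14 and 22.03, 37.5 and 23.3 at day 21. It fell by 2.00 ± 0.23 at day 5 (adjusted p = 0.000243), by 0.64 ± 0.22 at day 14 (adjusted p = 0.0243), where library totals alone gave 0.087, and by 0.81 ± 0.22 at day 21 (adjusted p = 0.0146) or 1.10 ± 0.17 without day-21 replicate 2. The day-14 call of H2-Q6 was lost without control replicate 1, day-14 replicate 1 or day-14 replicate 2, and its day-21 call without day-21 replicate 1 or 3 and with library totals alone (-0.38). The ratio of TPM of H2-Q7 to H2-Q6 was 0.417 to 0.463 at day 5 and 0.384 to 0.386 in controls, and reads of this pair may be shared.

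Set against H2-K1, whose promoter window holds the same motif letters, H2-Q7 was lower at all 3 days. The ratio of TPM of H2-Q7 to H2-K1 was 0.225, 0.181 and 0.230 in controls, 0.0541, 0.0517 and 0.0402 at day 5, 0.0407, 0.0452 and 0.0481 at day 14 and 0.0388, 0.109 and 0.0377 at day 21. All libraries of day 5 and day 14 and 2 of the 3 at day 21 lay between 0.0377 and 0.0541, below the controls, and day-21 replicate 2 lay between them and the controls. H2-Q5 fell by 1.53 ± 0.40 at day 5 (adjusted p = 0.0276), with 2.70, 3.13 and 1.79 CPM at day 5 and 10.9, 5.48 and 5.55 CPM in controls. The call was lost without control replicate 1 or any 1 day-5 library. The same libraries were compared for markers of the proximal tubule, which were present in every library. Proximal tubule markers, summed over Lrp2, Cubn, Slc34a1, Slc5a2 and Slc22a6, were at 4854 to 5595 CPM at day 5 and 7184 to 7978 CPM in controls. None of the 5 was called at day 5, where 5.09% of all genes fell. Without day-21 replicate 2, 2 were called lower at day 5, where 14.9% of all genes fell. They were lower still at day 14, at 961 to 1076 CPM, where H2-Q7 and H2-Q6 were higher than at day 5. The day-21 library with the highest H2-Q7 also had the highest proximal tubule sum. In day-21 replicate 2 it was 5421 CPM, against 1188 and 862 CPM in day-21 replicates 1 and 3. The podocyte markers Nphs1, Podxl, Wt1 and Synpo summed to 229 to 249 CPM in controls, 81.2 to 97.7 at day 5, 107 to 114 at day 14 and 80.1 to 181 at day 21, and the highest day-21 sum was again that of day-21 replicate 2. All 4 fell at day 5, while 3 fell at day 14 and 3 at day 21, or 4 at day 21 without day-21 replicate 2. Of all genes, 5.09% fell at day 5, 28.8% at day 14 and 18.5% at day 21, or 28.4% at day 21 without that library. With library totals alone, 4 fell at day 5, 3 fell and 1 rose at day 14, and 2 fell at day 21. In that fit 2.78% of all genes fell at day 5, 11.2% fell and 66.4% rose at day 14, and 7.39% fell at day 21. The part of these cells in the falls was not tested.

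H2-Bl had the largest fall in every comparison with control, from few counts. Summed over the 3 libraries of each group, controls held 142 counts, day 5 held 15, day 14 held 6 and day 21 held 33, and 28 of the last were in day-21 replicate 2. Per library it was at 1.66, 1.45 and 1.17 CPM in controls, 0.0989, 0.168 and 0.145 at day 5, 0.0771, 0.0491 and 0 at day 14 and 0.0726, 0.898 and 0.0470 at day 21. Pooled over a group, the ratio to control was 0.0976 at day 5 (95% counting interval 0.0532 to 0.166), 0.0314 at day 14 (0.0113 to 0.0700) and 0.201 at day 21 (0.133 to 0.295), and these intervals cover counting error only. The fitted log2 values were -3.33 ± 0.86 (adjusted p = 0.0253), -4.91 ± 0.98 (adjusted p = 0.00148) and -2.17 ± 0.78 (adjusted p = 0.0438), or -4.51 ± 0.53 at day 21 without day-21 replicate 2. At day 5 the call needed every control and day-5 library. At day 21 it was kept without day-14 replicate 3 or day-21 replicate 2 and lost on leaving out any 1 of the other 10 libraries, and with only the 6 libraries compared.

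The opposite end was held by H2-M2, whose controls together held 8 counts, against 10 for day 5, 357 for day 14 and 157 for day 21. It was at 0.0593, 0.120 and 0.0617 CPM in controls, 0.0989, 0.0559 and 0.121 at day 5, 2.16, 2.55 and 3.43 at day 14 and 0.750, 1.38 and 1.95 at day 21. Every library of day 14 and day 21 lay above every library of control and day 5, day-21 replicate 2 included. The pooled ratio to control was 33.2 at day 14 (95% counting interval 16.6 to 77.4) and 17.0 at day 21 (8.39 to 39.9). H2-M2 rose by 5.02 ± 0.46 at day 14 (adjusted p = 1.85e-05) and 4.02 ± 0.47 at day 21 (adjusted p = 0.000422) or 4.01 ± 0.51 without day-21 replicate 2, the largest rises among all members.

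Other members of this group rose or fell by less. H2-Q1, H2-Q4 and H2-M3, the last of which presents formylated peptides of bacteria, rose at day 14 by 1.45 ± 0.16, 1.43 ± 0.18 and 1.39 ± 0.17 and at day 21 by 0.96 ± 0.16, 0.94 ± 0.18 and 0.92 ± 0.17, or 1.14 ± 0.09, 1.13 ± 0.12 and 1.06 ± 0.14 without day-21 replicate 2. H2-T24 and H2-K2 were called against control at day 14, by 0.98 ± 0.25 and 0.96 ± 0.15, and at neither other day. H2-Q10, known as a secreted molecule of the liver, was called at day 21 (0.94 ± 0.34, adjusted p = 0.043), lost when any of 8 libraries was left out and at 0.93 ± 0.36 without day-21 replicate 2. H2-T22, a ligand of some gamma delta T cells, was at 67.6, 65.7 and 65.0 CPM in controls, 56.8, 53.3 and 53.8 at day 5, 44.0, 47.2 and 43.8 at day 14 and 39.8, 51.5 and 50.2 at day 21, and all toxin libraries lay below all controls. It fell by 0.55 ± 0.09 at day 14 (adjusted p = 0.000559), where library totals alone gave 0.17, and by 0.49 ± 0.09 at day 21 (adjusted p = 0.00376), where library totals alone gave -0.016 and leaving out day-21 replicate 2 gave -0.56 ± 0.09. H2-T23, which encodes Qa-1, the ligand of the inhibitory receptor CD94 and NKG2A, was not called at any day (-0.35 ± 0.11, -0.18 ± 0.11 and -0.30 ± 0.11), and fell at all 3 days without day-21 replicate 2, while library totals alone gave 0.55 at day 14. H2-Ke6 was at 129, 138 and 127 CPM in controls, 127, 124 and 128 at day 5, 93.1, 93.8 and 94.7 at day 14 and 99.5, 125 and 121 at day 21, with no overlap between day 14 and controls. It fell by 0.48 ± 0.09 at day 14 (adjusted p = 0.0012), where library totals alone gave 0.25.

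**Figure D5:**
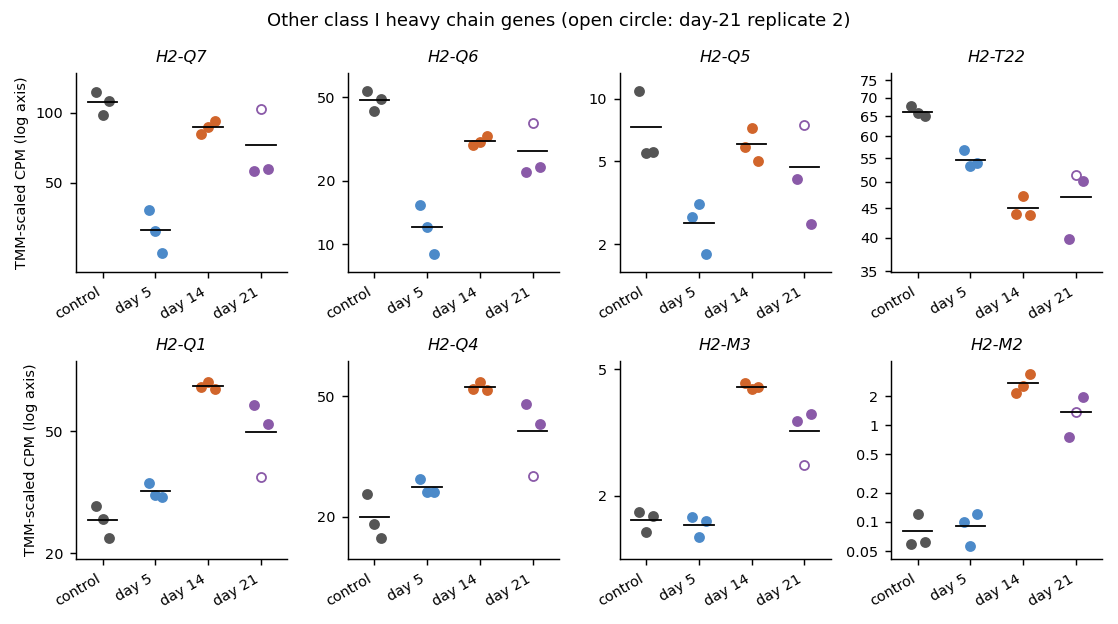
TMM-scaled CPM (log y axes) of 8 other class I heavy chain genes in each of the 12 libraries by group (x axes), with a line at the group mean and an open circle for day-21 replicate 2. In the upper row H2-Q7, H2-Q6 and H2-Q5 have their lowest mean at day 5 and day-21 replicate 2 is their highest day-21 library, and in the lower row H2-Q1, H2-Q4, H2-M3 and H2-M2 are highest at day 14.

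Between the toxin days, most members rose to day 14 and none was called higher at day 21 than at day 14. Day 14 against day 5 gave 31 rises and 2 falls, where 24.7% of all genes rose and 26.1% fell, with a median of 1.21 for members and 0.03 for all genes. The largest rises were those of H2-M2 (4.82 ± 0.45) and H2-Aa (2.76 ± 0.22, adjusted p = 2.44e-05), and the 2 falls were those of H2-Ke6 (-0.43 ± 0.09) and H2-T22 (-0.28 ± 0.09), of which 1 was left without control replicate 3, any day-5 library or day-14 replicate 1 or 3, and 0 with library totals alone. H2-Q7, H2-Q6 and H2-Q5 rose by 1.47 ± 0.23, 1.36 ± 0.22 and 1.25 ± 0.40. Day 21 against day 14 gave 0 rises and 14 falls by edgeR, where 7.03% of all genes rose and 7.57% fell, with a median of -0.65 for members. At an unadjusted p under 0.05, 2 members rose, DESeq2 called 2 rises and limma-voom 0. The largest falls were those of Ciita (-1.41 ± 0.20, adjusted p = 0.00225) and Cd74 (-1.16 ± 0.23, adjusted p = 0.00962), and 6 of the 11 class II genes and 6 of the 10 classical class I and assembly genes fell. Without day-21 replicate 2, 1 member rose, H2-Q2 (1.24 ± 0.23), and 20 fell, where 12.5% of all genes rose and 11.4% fell. In that fit Ciita was at -1.26 ± 0.18 and Cd74 at -0.91 ± 0.13, so most members that fell after day 14 did so with that library left out as well. Without day-14 replicate 1, 9 fell, and without day-21 replicate 1 or 3, 2 and 1 rose.

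Per unit of length, B2m and Cd74 were the most abundant members in controls and at day 14. TPM is read here between genes of the same libraries and not between days, since it is not TMM-scaled. In controls the order was B2m at 305 ± 24.9 TPM, Cd74 at 102 ± 15.6, H2-D1 at 85.7 ± 4.15 and H2-K1 at 59.7 ± 2.60 (SD, n = 3). At day 14 it was B2m at 2377 ± 120.4 TPM, Cd74 at 2156 ± 63.5, H2-D1 at 528 ± 32.1 and H2-Eb1 at 508 ± 24.2, and the last 2 lay within the spread of each other. The ratio of TPM of Cd74 to B2m was 0.337, 0.362 and 0.302 in controls, 0.331, 0.310 and 0.350 at day 5, 0.967, 0.876 and 0.882 at day 14 and 0.836, 0.525 and 0.686 at day 21, higher in every day-14 library than in any other. H2-Aa to H2-K1 was 0.285, 0.264 and 0.239 in controls, 0.286, 0.293 and 0.295 at day 5, 0.587, 0.651 and 0.709 at day 14 and 0.528, 0.399 and 0.377 at day 21, with day 14 again above the other groups. Among class II genes the scarcest in controls were H2-Eb2 at 0.0252 ± 0.0123 TPM and H2-Ob at 0.164 ± 0.0176 TPM. The transactivators were scarce beside their targets, with Ciita at 0.420 ± 0.0629 and Nlrc5 at 0.424 ± 0.0638 TPM in controls.

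Genes that work with the members were followed through lists chosen with earlier results of these data known. Of 15 other class II pathway genes, 6 rose and 2 fell at day 14 (median 0.21), where 31.2% of all genes rose and 28.8% fell. With library totals alone 13 rose and none fell (median 0.93), where 66.4% of all genes rose and 11.2% fell. Ctss, the protease that trims the invariant chain in antigen-presenting cells, rose by 3.76 ± 0.27 (adjusted p = 5.28e-06), Ifi30, a lysosomal thiol reductase, by 0.82 ± 0.14, and Rfx5, a subunit of the X box factor, by 0.86 ± 0.18. Marchf8, a ligase that removes surface proteins, fell by 0.68 ± 0.13 and Nfyc, a subunit of the CCAAT box factor, by 0.74 ± 0.08. Of 14 other class I pathway genes, 9 rose and 1 fell at day 14 (median 0.72), or 13 and 1 with library totals alone (median 1.45). The proteasome activators Psme1 and Psme2 rose by 0.93 ± 0.15 and 0.89 ± 0.15, Tapbpl, the peptide editor related to tapasin, by 1.23 ± 0.16, and Erap1, the peptide-trimming aminopeptidase, by 0.75 ± 0.09 after 0.63 ± 0.09 at day 5 (adjusted p = 0.000878). The chaperones Calr, Canx and Pdia3 were not called at day 14 (0.11 ± 0.20, -0.27 ± 0.16 and -0.07 ± 0.17), and Fcgrt, the neonatal Fc receptor, fell by 0.99 ± 0.19.

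Genes of the interferon gamma axis were followed as well. Irf1, an interferon-induced factor that acts on class I promoters, rose by 1.84 ± 0.17 at day 14 (adjusted p = 2.02e-05), and the receptor chains Ifngr1 and Ifngr2 by 2.00 ± 0.24 and 1.95 ± 0.19. Ifng itself was not tested, and its group sums were 5 counts for controls, 1 for day 5, 8 for day 14 and 1 for day 21. Of 5 tested costimulatory and checkpoint ligands, 4 rose at day 14, where 31.2% of all genes rose. Among them were Cd80 at 3.57 ± 0.50, Cd40 at 2.69 ± 0.25 and Cd86 at 2.60 ± 0.38, which provide the additional signals T cells need, while Cd274, which encodes PD-L1, was at -0.22 ± 0.26 (adjusted p = 0.488). Of 8 listed receptors of lymphocytes and myeloid cells, most of them for MHC molecules, 6 rose at day 14, beside the same 31.2% of all genes. Pirb, an inhibitory receptor of myeloid cells that binds class I, rose by 3.54 ± 0.29, and Cd4, the coreceptor for class II, by 2.41 ± 0.33. Klrd1, which encodes CD94, rose by 2.10 ± 0.26 and Cd8b1, a chain of the coreceptor for class I, by 1.47 ± 0.32, while Cd8a was at 0.74 ± 0.33 (adjusted p = 0.0696).

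Most markers of macrophages, dendritic cells and all leukocytes were higher at day 14, as most members were, where 31.2% of all genes rose. The 10 macrophage and monocyte markers summed to 74.3 to 96.1 CPM in controls, 84.3 to 98.8 at day 5, 501 to 514 at day 14 and 151 to 292 at day 21, and all 10 rose at day 14 (median 3.32). The lowest day-21 sum was that of day-21 replicate 2 (151 CPM), which was also the lowest in most class II genes. The 10 dendritic cell markers summed to 19.6 to 22.7 CPM in controls, 25.1 to 27.8 at day 5, 71.5 to 74.3 at day 14 and 28.4 to 38 at day 21. At day 14, 9 of them rose (median 1.73) and Siglech, a marker of plasmacytoid dendritic cells, was not called. The 3 genes of all leukocytes summed to 16.7 to 20.0 CPM in controls, 26.9 to 29.0 at day 5, 130.2 to 141 at day 14 and 41.5 to 75.8 at day 21, and all rose at day 14.

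Lymphocyte markers were scarcer. For the day-14 counts below, 31.2% of all genes rose and 28.8% fell. The 6 T cell markers summed to 2.22 to 3.10 CPM in controls, 2.60 to 3.99 at day 5, 7.90 to 9.01 at day 14 and 3.95 to 5.62 at day 21, and 5 rose at day 14. The B cell genes Ms4a1 and Pax5 were near 0, with 12 and 9 counts over the day-14 libraries and 20 and 9 over the controls. Of the B cell genes tested, Cd22 and Cd79b rose at day 14 and Cd79a was at -1.49 ± 0.78. The 4 NK cell markers summed to 0.563 to 0.994 CPM in controls, 0.482 to 0.824 at day 5, 0.540 to 0.730 at day 14 and 0.436 to 0.674 at day 21, with neither of the 2 tested called at day 14. Among other cells, the 5 neutrophil markers summed to 0.301 to 0.445 CPM in controls, 1.09 to 1.90 at day 5, 4.76 to 5.79 at day 14 and 1.80 to 3.57 at day 21, and the 3 tested rose at day 14. Endothelial markers summed to 229 to 247 CPM in controls, 213 to 251 at day 5, 149 to 161 at day 14 and 123 to 213 at day 21. At day 14, 3 of 5 were called lower, where 28.8% of all genes fell. With library totals alone 1 was higher and none lower, where 66.4% of all genes rose and 11.2% fell. No marker named here was at 0 in all libraries. The part of these cells in the members' rises was not tested.

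At day 14, 2 class II genes were higher and 2 class I genes lower against the pan-leukocyte gene Ptprc than in controls. The ratio of TPM of Cd74 to Ptprc was 294 ± 15.3 at day 14 and 197 ± 12.8 in controls, and that of H2-Aa to Ptprc 42.9 ± 4.55 and 30.5 ± 3.61, with no overlap of libraries. For class I the order was the other way, with H2-K1 to Ptprc at 66.1 ± 1.73 at day 14 and 116 ± 14.9 in controls, and B2m to Ptprc at 325 ± 32.3 and 593 ± 68.7, again with no overlap. At day 5 the class I ratios overlapped the controls, with B2m to Ptprc at 677 ± 56.8 and H2-K1 to Ptprc at 102 ± 9.67. At day 21, H2-K1 to Ptprc was at 110.2 ± 22.2, with libraries that overlapped the controls. B2m to Ptprc had a lower mean at day 21 than in controls. It was at 417, 461 and 546 at day 21, against 625, 514 and 639 in controls, with day-21 replicates 1 and 2 below every control. The class II ratios overlapped the controls at day 5. At day 21 they lay above every control, with Cd74 to Ptprc at 349, 242 and 374 and H2-Aa to Ptprc at 53.7, 37.3 and 51.0. Against Adgre1, which encodes the macrophage protein F4/80, H2-Aa stood at 11.1 ± 0.854 at day 14 and 11.3 ± 0.940 in controls, and Cd74 at 75.9 ± 1.40 and 73.7 ± 10.3, with overlapping libraries (SD, n = 3 each). At day 5 the ratio of H2-Aa to Adgre1 was 14.8 ± 1.40, above every control. These ratios are descriptions without a test.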

How the data were processed

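RNA of 12 whole kidneys, 3 in each of 4 groups, was sequenced with paired-end reads. The authors deposited 1 table of raw counts per gene, 1 column per library, made with fastp 0.20.0, featureCounts and the genome build GRCm39, per the submitters' processing notes. Not given in the sources used here are the annotation release, strand setting, aligner and what was done with multi-mapping reads. The deposited table also gives gene length, used here for TPM.

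All 12 libraries were fitted together with edgeR 4.0.16 in R 4.3.3: filterByExpr, TMM scaling, glmQLFit and glmQLFTest, 1 coefficient per group and no covariate, with Benjamini-Hochberg adjustment over 19821 tested genes and a threshold of 0.05. SE was taken as the absolute log2 fold change over the root of the F statistic. Alternatives were median-of-ratios factors, library totals alone, other filters, a minimum log2 fold change of 1, a replicate block, only the 6 libraries compared, each library left out, DESeq2 1.42.0 and limma-voom (limma 3.58.1). The fit was also run on simulated counts with a fixed spread and few changed genes. These settings differ from the data, so that run cannot vouch for the calls given here. No pair of libraries agreed within sampling noise.

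Genes named with values per library were 18 members set by role, and in each comparison the 2 members with the largest called rise and the 2 with the largest called fall; other members and listed genes are named with values. Members and lists were chosen with earlier results of these data known. Some genes of the lists are not reported here.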

Additional observations from a re-analysis of the deposited data

How the results depend on the processing

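Values of single members were counted over the comparisons with control, under every alternative but the minimum log2 fold change. In 2108 of them the call was kept, with the same direction where called, while 79 gained a call and 75 lost it. Values called in neither fit could change sign within the 2108, as H2-Q7 did at day 14 with library totals alone. A further 5 changed sign with a call in either fit, all 5 with library totals alone: at day 14 H2-Ke6 (0.25), H2-Q6 (0.087), H2-T22 (0.17) and H2-T23 (0.55, adjusted p = 0.000112), and at day 21 H2-Ke6 (0.28). The counts of members moved as follows. Asking for a log2 fold change of at least 1 left 1 rise at day 5, 1 fall at day 14, 15 rises and 1 fall at day 21, 0 falls of day 14 against day 5 and 7 falls of day 21 against day 14. Library totals alone gave 1 fall at day 14, 1 at day 21 and 0 of day 14 against day 5. Fitting only the 6 libraries compared gave 16 rises at day 5, 0 falls at day 21 and 2 falls of day 21 against day 14. DESeq2 gave 7 rises at day 5 and 2 of day 21 against day 14, no filter gave 1 fall of day 14 against day 5, and a minimum of 1 CPM gave 1 rise of day 21 against day 14.

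With each library left out, counts of rises and falls ranged from 2 to 18 and 2 to 6 at day 5, from 26 to 28 and 3 to 6 at day 14, from 21 to 25 and 1 to 7 at day 21, from 26 to 32 and 1 to 3 for day 14 against day 5, and from 0 to 2 and 9 to 20 for day 21 against day 14. The cause of these changes was not tested. Replicate numbers were shared between groups, and deviations of same-numbered libraries correlated at -0.14 to 0.17. With 3 libraries per group and no differently numbered pairs beside them, these values cannot tell whether libraries were paired. The main fit did not pair them. The replicate block gave 28 rises at day 14 and 15 falls of day 21 against day 14, and the calls of H2-Ab1 at day 5 (adjusted p = 0.0542) and H2-Q7 at day 21 (adjusted p = 0.0546) were lost under it. Few counts limit H2-Bl, H2-M2, H2-Eb2, H2-Oa and H2-M5.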

Other observations

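H2-T10 spread widely within groups. It was at 1.48, 1.51 and 1.05 CPM in controls, 5.14, 1.37 and 1.57 at day 5, 3.37, 3.48 and 3.04 at day 14 and 2.32, 0.802 and 11.6 at day 21, and was not called against control by edgeR with TMM over all 12 libraries. At day 14 it was called with only the 6 libraries compared (log2 fold change 1.26) and with library totals alone (2.02). At day 21 it was called with DESeq2 (1.83), with library totals alone (2.48) and without day-21 replicate 2 (2.36). It overlaps another row on the same strand, Gm7030, by 5590 bases, and over all libraries H2-T10 held 1460 counts and Gm7030 held 1339. H2-Q2 was at 3.44, 0.963 and 3.55 CPM at day 21 and 1.45, 1.39 and 0.987 CPM in controls. Inside Cd74 the table lists Mir5107 with 93956 counts in all.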
